A study of Sus scrofa with 10 samples.

Results

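The 10 genes described here belong to the Hippo pathway or are textbook targets of it: TEAD1, TEAD3, TEAD4, YAP1, WWTR1, LATS2, AMOTL2, CCN1, CCN2 and ANKRD1. They were taken by symbol from 35670 annotated pig genes, and each symbol had an Ensembl gene identifier in the deposited tables. They were chosen with their values in these libraries known, so their levels and differences are given as a description, without a p-value. The Hippo pathway is a kinase cascade in which LATS kinases phosphorylate the coactivators YAP1 and WWTR1 (also called TAZ) and thereby keep them out of the nucleus. Coactivators that remain in the nucleus bind TEAD transcription factors and switch on genes for growth, matrix and cytoskeleton. In heart muscle the pathway is known for limiting cardiomyocyte proliferation and for responding to mechanical load.

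The libraries held nuclear RNA of cardiomyocytes sorted from wild-type minipig hearts. The control group had 5 libraries (numbered 1 to 5) and received phosphate-buffered saline. Libraries 6 and 7 were from deoxycorticosterone acetate (DOCA), a mineralocorticoid that raises blood pressure, and libraries 8 to 10 received JK07 in addition. The title of the series calls JK07 an agonist of ERBB4, a neuregulin receptor, and concerns atrial fibrillation, while the labels give the tissue only as heart. No source used here gives the chamber, age, dose or duration. Separate animals are not named for the libraries, so p-values cover only the spread between these libraries, which may be technical.

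A library held 28.1 to 106 M (M, mega) estimated counts in all, and scaffolds of ribosomal RNA took 77.6% to 90.8% of them. Outside these and the mitochondrial genome, DOCA libraries 6 and 7 held 6.87 and 3.3 M, the controls 8.67 to 13.9 M and the JK07 libraries 9.03 to 12.9 M. Of the 17251 genes tested, 34.9% and 39.1% were listed at 0 in the DOCA libraries, against 5.48% to 15.6% in the other 8. The TMM scaling factor of library 6 was 0.511, against 0.871 to 1.35 elsewhere, so its scaled values stand higher relative to its TPM than those of the other libraries. All 10 cardiomyocyte markers identified were above 0 in every library, with summed levels of 4761 to 5828 CPM in controls, 6356 and 3936 in libraries 6 and 7, and 5555 to 8988 with JK07. Levels below are CPM, the estimated counts divided by library size after TMM scaling, unless TPM, which is also per gene length, is named, and a difference is an edgeR log2 fold change with its approximate standard error (SE). Deposited TPM is relative to a total that includes the ribosomal RNA scaffolds. These took 90.8% and 88.2% of the counts in libraries 6 and 7, 82.1% to 86.3% in controls and 77.6% to 86.2% with JK07. Deposited TPM is therefore not a neutral scale between the groups. In bulk libraries, fewer cells of a type and less RNA per cell cannot be told apart.

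TEAD4 had the largest fitted difference of the members between DOCA and control, except without library 6 (1.39, with CCN2 at 1.55) and on log2(TPM + 1) (1.31, with CCN2 at 1.42). It is a TEAD factor best known from trophectoderm and skeletal muscle, at chromosome 5, 67118317 to 67194072 (ENSSSCG00000000736) on the minus strand of Sscrofa11.1. Its level in control libraries 1 to 5 was 2.36, 1.65, 3.49, 4.82 and 2.47 CPM. DOCA library 6 had 44.6 CPM and library 7 had 7.76 CPM. The DOCA plus JK07 libraries 8 to 10 had 2.99, 3.69 and 3.89 CPM. Both DOCA libraries thus lay above all controls and all JK07 libraries, which overlapped each other, and library 6 lay 5.75-fold above library 7. Library 6 held 1743 estimated counts of TEAD4 and library 7 held 232. The log2 difference was 3.15 (SE 0.55) for DOCA from control, -2.89 (SE 0.65) for DOCA plus JK07 from DOCA and 0.25 (SE 0.52) for DOCA plus JK07 from control. The first was 1.39 and the second -1.14 without library 6, and neither then passed the threshold. The second also did not pass without JK07 library 8, at -2.83.

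**Figure D1:**
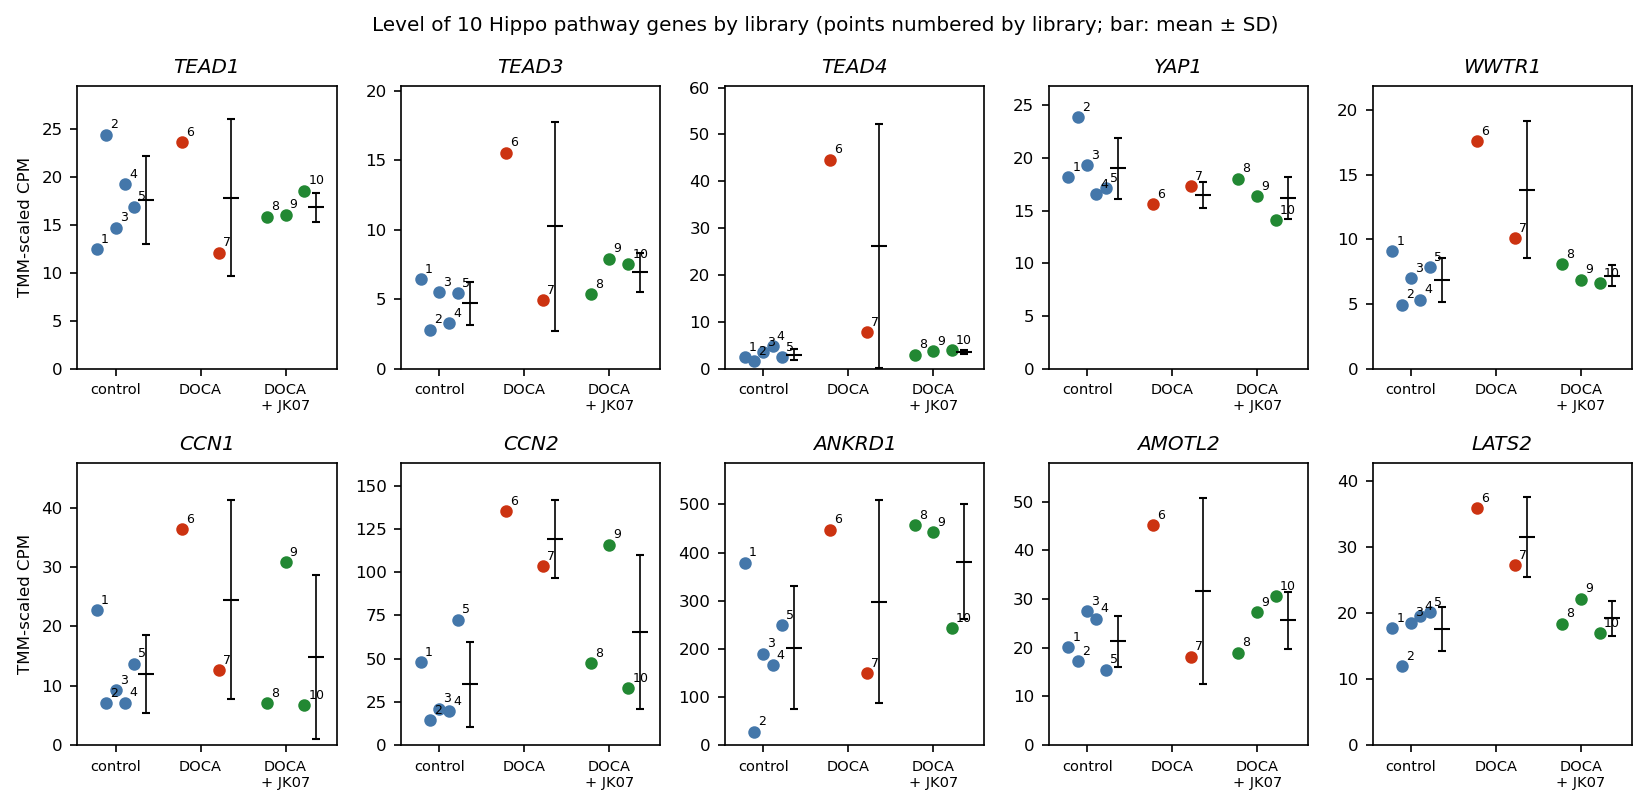
Level of each of the 10 genes in TMM-scaled CPM (y axes, linear, from 0) in control, DOCA and DOCA plus JK07 libraries. Points are libraries with their numbers, and bars are the mean ± SD; TEAD4, WWTR1, CCN2 and LATS2 have both DOCA libraries above all controls.

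TEAD1, the TEAD factor that binds the MCAT element of muscle genes, lies at chromosome 2, 46400066 to 46670472 (ENSSSCG00000013399) on the minus strand. Its control level was 12.5, 24.5, 14.7, 19.3 and 16.9 CPM, against 23.7 and 12.1 CPM in DOCA libraries 6 and 7 and 15.9, 16.1 and 18.6 CPM with JK07. The groups overlapped, and the log2 difference of DOCA from control was 0.02 (SE 0.31). The direction of TEAD1 depended on the scale. In deposited TPM, both DOCA libraries (4.06 and 3.74 TPM) lay under all controls (4.34 to 8.64 TPM) and under the JK07 libraries (4.73 to 9.14 TPM). On log2(TPM + 1) the difference of DOCA from control was -0.47, where the median of all genes was -0.39.

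TEAD3, a broadly expressed TEAD factor, lies at chromosome 7, 31336560 to 31361835 (ENSSSCG00000001544) on the minus strand. Control libraries had 6.42, 2.80, 5.50, 3.29 and 5.41 CPM. DOCA library 6 had 15.5 CPM and library 7 had 4.92 CPM, and the JK07 libraries had 5.33, 7.91 and 7.49 CPM. Library 6 alone lay above the other 9, and library 7 was inside the control range. The log2 difference of DOCA from control was 1.13 (SE 0.44), and 0.07 without library 6. A short unnamed gene of the opposite strand overlaps TEAD3, at 0.15 to 0.584 CPM, and no source used here says whether counting used strand. No annotated gene overlaps any other member.

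The makeup of the TEAD family within a library does not depend on scaling between libraries, and was looked at after the values had been seen. TEAD4 made up 5.7%, 3.43%, 7.68%, 10.9% and 5.38% of the summed TPM of TEAD1, TEAD2, TEAD3 and TEAD4 in the controls. It made up 36.9% in DOCA library 6, 18.9% in library 7, and 6.97%, 7.2% and 6.68% with JK07. TEAD1 made up 42.6% to 71.8% in controls, 27.7% and 42.0% in DOCA, and 44.6% to 52.4% with JK07. TEAD4 therefore took a larger share in both DOCA libraries than in any other, and TEAD1 a smaller one. In library 6 TEAD4 was the largest of the family by TPM, while in library 7 TEAD1 was.

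**Figure D2:**
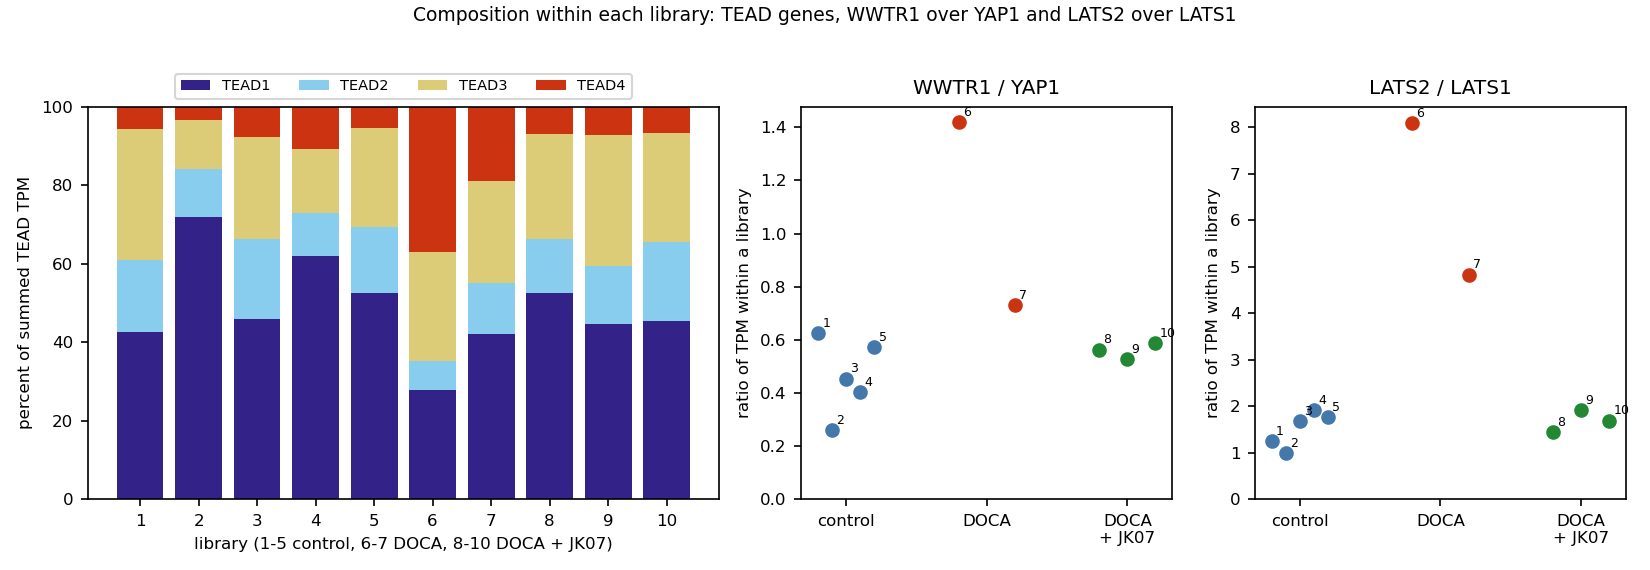
Left, share of TEAD1, TEAD2, TEAD3 and TEAD4 in their summed TPM (y axis, percent) by library; right, the TPM ratios of WWTR1 to YAP1 and of LATS2 to LATS1 in each library (points, numbered). TEAD4 takes 36.9% and 18.9% in DOCA libraries 6 and 7, and both ratios are highest in these libraries. Shares and ratios were looked at after the values had been seen.

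The coactivators differed from each other. YAP1 (ENSSSCG00000031429, chromosome 9, 32811416 to 32925603, plus strand) had 18.2, 23.9, 19.3, 16.6 and 17.1 CPM in controls, 15.6 and 17.3 CPM in DOCA, and 18.04, 16.4 and 14.1 CPM with JK07. In CPM it varied least of the 10 genes among controls, with a coefficient of variation of 15.4%, and its groups overlapped. In TPM, LATS2 varied less among controls (SD 0.898 at a mean of 5.22) than YAP1 did (SD 0.985 at a mean of 5.25). Its log2 difference was -0.21 (SE 0.18) in DOCA against control and -0.23 (SE 0.16) in DOCA plus JK07 against control. In TPM, library 6 was the lowest of all 10 at 2.20, against 4.38 to 6.93 in controls and 4.39 in library 7.

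WWTR1, the other coactivator, lies at chromosome 13, 89742886 to 89889187 (ENSSSCG00000011704) on the minus strand. Control libraries had 9.08, 4.96, 6.998, 5.33 and 7.85 CPM. DOCA libraries had 17.6 and 10.1 CPM, above every other library, and JK07 libraries had 8.11, 6.89 and 6.61 CPM, inside the control range. WWTR1 had a log2 difference of 1.02 (SE 0.28) for DOCA from control and of -0.95 (SE 0.32) for DOCA plus JK07 from DOCA. The second did not pass the threshold. The first was 0.56 without library 6 and 1.03 without control library 3, and did not pass the threshold in either fit. In deposited TPM the groups overlapped, with 1.77 to 3.24 in controls and 3.11 and 3.20 in DOCA.

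Within a library, the TPM of WWTR1 divided by that of YAP1 was 0.624, 0.259, 0.454, 0.403 and 0.573 in controls. The ratio was 1.42 in DOCA library 6, 0.73 in library 7, and 0.563, 0.527 and 0.586 with JK07. WWTR1 exceeded YAP1 in library 6 only. This ratio too was looked at after the values had been seen.

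LATS2 is a kinase that inhibits YAP1 and WWTR1 and is itself a known YAP target, at chromosome 11, 1225527 to 1265946 (ENSSSCG00000036326) on the minus strand. Its control level was 17.7, 12.0, 18.6, 19.5 and 20.1 CPM. It was 35.8 and 27.3 CPM in DOCA libraries 6 and 7, above all others, and 18.4, 22.2 and 16.9 CPM with JK07, which overlapped the controls. The log2 difference of DOCA from control was 0.85 (SE 0.22), and that of DOCA plus JK07 from DOCA was -0.72 (SE 0.25). The second did not pass the threshold. Without library 6 the first was 0.63 and did not pass the threshold. In deposited TPM, LATS2 overlapped between groups, with 3.76 to 6.15 in controls, 5.48 and 7.48 in DOCA, and 5.80 to 7.40 with JK07. On log2(TPM + 1) the difference of DOCA plus JK07 from DOCA was 0.02.

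Its paralog LATS1, the other LATS kinase, is not among the 10 genes and differed in the opposite direction. LATS1 had 14.3 to 19.9 CPM in controls, 6.22 and 7.93 CPM in DOCA, and 14.1 to 17.96 CPM with JK07. The TPM ratio of LATS2 to LATS1 was 1.25, 0.988, 1.68, 1.92 and 1.76 in controls, 8.09 and 4.83 in DOCA, and 1.44, 1.92 and 1.69 with JK07. The ratio was thus highest in both DOCA libraries, and was likewise looked at after the values had been seen.

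AMOTL2, an angiomotin family member that binds and retains YAP1 and is also a YAP target, lies at chromosome 13, 75490942 to 75509420 (ENSSSCG00000011643) on the minus strand. Controls had 20.1, 17.2, 27.6, 26.0 and 15.5 CPM, DOCA libraries had 45.2 and 18.1 CPM, and JK07 libraries had 19.0, 27.2 and 30.5 CPM. Only library 6 lay outside the control range among the DOCA libraries. AMOTL2 had a log2 difference of 0.57 (SE 0.36) for DOCA from control, which was -0.23 without library 6 and -0.07 on log2(TPM + 1).

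The secreted targets CCN1 and CCN2 are matricellular proteins long used as readouts of YAP and TEAD activity. CCN2, also called CTGF, lies at chromosome 1, 31674394 to 31677691 (ENSSSCG00000004192) on the plus strand. Controls had 48.1, 14.5, 21.1, 19.7 and 72.5 CPM, a 4.99-fold range. DOCA libraries had 135 and 103 CPM, and JK07 libraries had 47.2, 116 and 33.0 CPM. DOCA lay above all controls in CPM, and JK07 library 9 lay between the DOCA libraries. In deposited TPM, CCN2 overlapped between groups. It was at 9.73 to 47.3 TPM in controls, 44.0 and 60.4 in DOCA libraries 6 and 7, and 30.75 to 64.6 with JK07. The log2 difference of DOCA from control was 1.76 (SE 0.64). It did not pass the threshold in the fit of all libraries, passed without control library 5 (2.21), and was 1.55 without library 6. The log2 difference of DOCA plus JK07 from DOCA was -0.87 (SE 0.74), and that of DOCA plus JK07 from control was 0.89 (SE 0.59), or 0.19 without JK07 library 9.

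CCN1, also called CYR61, lies at chromosome 4, 130392407 to 130395150 (ENSSSCG00000006940) on the minus strand. It had 22.8, 7.08, 9.20, 7.12 and 13.7 CPM in controls, 36.3 and 12.6 CPM in DOCA, and 7.09, 30.9 and 6.77 CPM with JK07. Libraries 1, 6 and 9 were the highest of their groups, and the groups overlapped. CCN1 had a log2 difference of 1.03 (SE 0.70) for DOCA from control, and 0.07 without library 6. For DOCA plus JK07 from control it was 0.32 (SE 0.63), and -0.79 without JK07 library 9.

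ANKRD1, a stretch-responsive nuclear and sarcomeric protein of heart muscle, lies at chromosome 14, 102603777 to 102612839 (ENSSSCG00000010461) on the minus strand. Controls had 379, 27.8, 190.1, 165 and 249 CPM, a 13.6-fold range. DOCA libraries had 448 and 149 CPM, and JK07 libraries had 458, 443 and 243 CPM. Control library 2 was the lowest of all 10, and every pair of groups overlapped. The log2 difference was 0.56 (SE 0.76) in DOCA against control and 0.92 (SE 0.67) in DOCA plus JK07 against control. The DOCA difference was -0.44 without library 6.

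Per gene length, ANKRD1 was the most abundant member and TEAD4 the least in every control and JK07 library. Mean control levels were 70.1 ± 46.4 TPM for ANKRD1, 22.6 ± 16.4 for CCN2 and 9.70 ± 5.64 for CCN1 (SD, n = 5). AMOTL2 (6.92 ± 1.38 TPM), TEAD1 (5.92 ± 1.72), YAP1 (5.25 ± 0.985) and LATS2 (5.22 ± 0.898) followed. Neighbours in this order from CCN2 to LATS2 differed by less than the larger SD of the pair. TEAD3 (2.38 ± 0.809 TPM) and WWTR1 (2.36 ± 0.639) came next, likewise within their SD, and TEAD4 was at 0.689 ± 0.258 TPM. These SD are between libraries and do not judge the order within a library. Within each control library CCN2 ranked 2 among the members, at 1.63 to 4.19 times the TPM of CCN1. In DOCA, TEAD4 was at 5.404 TPM in library 6, above YAP1 at 2.20 TPM, and at 1.69 TPM in library 7, the lowest member there. In DOCA library 7, CCN2 at 60.4 TPM exceeded ANKRD1 at 47.4 TPM.

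Over the whole set, 3 of 10 members passed the adjusted p threshold of 0.05 as higher in DOCA than in control (TEAD4, WWTR1 and LATS2) and 0 as lower, with a median log2 difference of 0.93. Of all genes tested 25.5% passed, 5.73% as higher and 19.7% as lower, and the median difference was -0.63. In DOCA plus JK07 against DOCA, 1 member (TEAD4) passed as lower and 0 as higher, with a median of -0.64, while 17% of all genes passed, 2.25% as lower and 14.7% as higher, with a median of 0.55. The members were chosen on these contrasts, so nothing is read from these counts. Both comparisons use the same 2 DOCA libraries.

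WWTR1, LATS2 and CCN2, whose differences are given above, had no call in DOCA plus JK07 against DOCA. Among the other members without a call there, the log2 differences were -0.57 (SE 0.50) for TEAD3, -0.31 (SE 0.40) for AMOTL2, -0.72 (SE 0.79) for CCN1 and 0.36 (SE 0.86) for ANKRD1. TEAD1 was at -0.08 (SE 0.33) and YAP1 at -0.02 (SE 0.20). On log2(TPM + 1) the differences of TEAD1 (0.62), TEAD3 (0.29), YAP1 (0.56) and AMOTL2 (0.49) had the opposite sign, where the median of all genes was 0.52. Against control, DOCA plus JK07 was at 0.56 (SE 0.40) for TEAD3, 0.27 (SE 0.32) for AMOTL2, 0.13 (SE 0.20) for LATS2, 0.07 (SE 0.26) for WWTR1 and -0.06 (SE 0.27) for TEAD1.

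Groups did not overlap for 4 members higher in DOCA than in control (TEAD4, WWTR1, CCN2 and LATS2). Of all genes, 37.9% did not overlap there, 10.2% higher and 27.6% lower. For 3 members (TEAD4, WWTR1 and LATS2) the JK07 libraries lay wholly below the DOCA libraries in CPM, where 40.1% of all genes did not overlap, 30.3% higher and 9.82% lower. In TPM this held for TEAD4 only. Between JK07 libraries and controls all 10 members overlapped, where 5.81% of all genes did not, 3.37% higher and 2.45% lower. In that comparison edgeR's quasi-likelihood test called 0 members and 0 of all 17251 genes (0% after Benjamini-Hochberg adjustment), with 803 genes at an unadjusted p under 0.05. DESeq2 called 116 genes and limma voom with quality weights called 8, with no member among them in either.

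**Figure D3:**
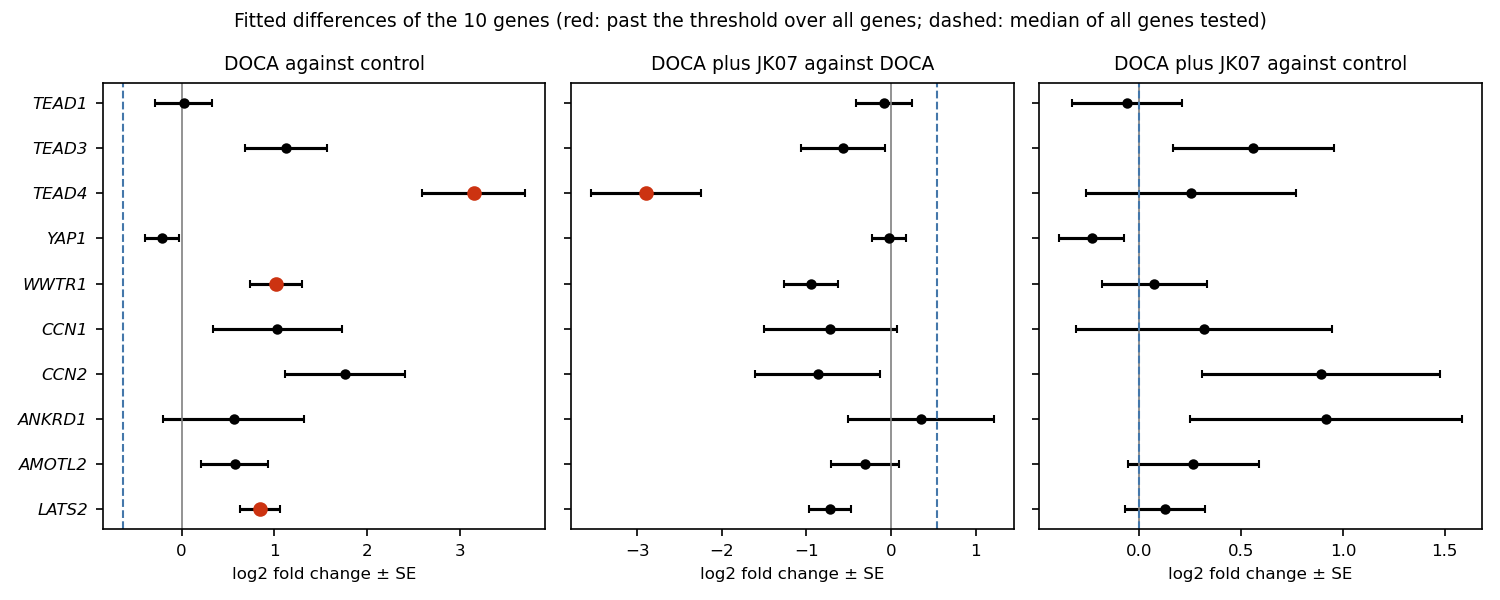
Fitted log2 fold change ± SE of each of the 10 genes (x axes) in 3 panels: DOCA relative to control, then JK07-treated relative to DOCA, then JK07-treated relative to control. Red points passed the threshold over all genes, and dashed lines are the median of all genes tested (-0.63, 0.55 and 0.00).

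Library 6 weighed on most of these values. Without it 0 members passed the threshold in DOCA against control, and without library 7 there were 5 (TEAD3 at 1.72, TEAD4 at 3.91, WWTR1 at 1.36, AMOTL2 at 1.08 and LATS2 at 1.02). Over all genes, calls of higher in DOCA went the same way, from 988 to 498 without library 6 and to 1354 without library 7. Without library 6 the differences of TEAD4, CCN2, WWTR1 and LATS2 were between 0.56 and 1.55, those of TEAD3 and CCN1 were 0.07, and those of TEAD1 (-0.54), ANKRD1 (-0.44), AMOTL2 (-0.23) and YAP1 (-0.14) were negative. On log2(TPM + 1), TEAD4 was the only member that passed in DOCA against control, at 1.31, where WWTR1 was at 0.33 and LATS2 at 0.27. Weights that let each library have its own spread called 0 members.

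**Figure D4:**
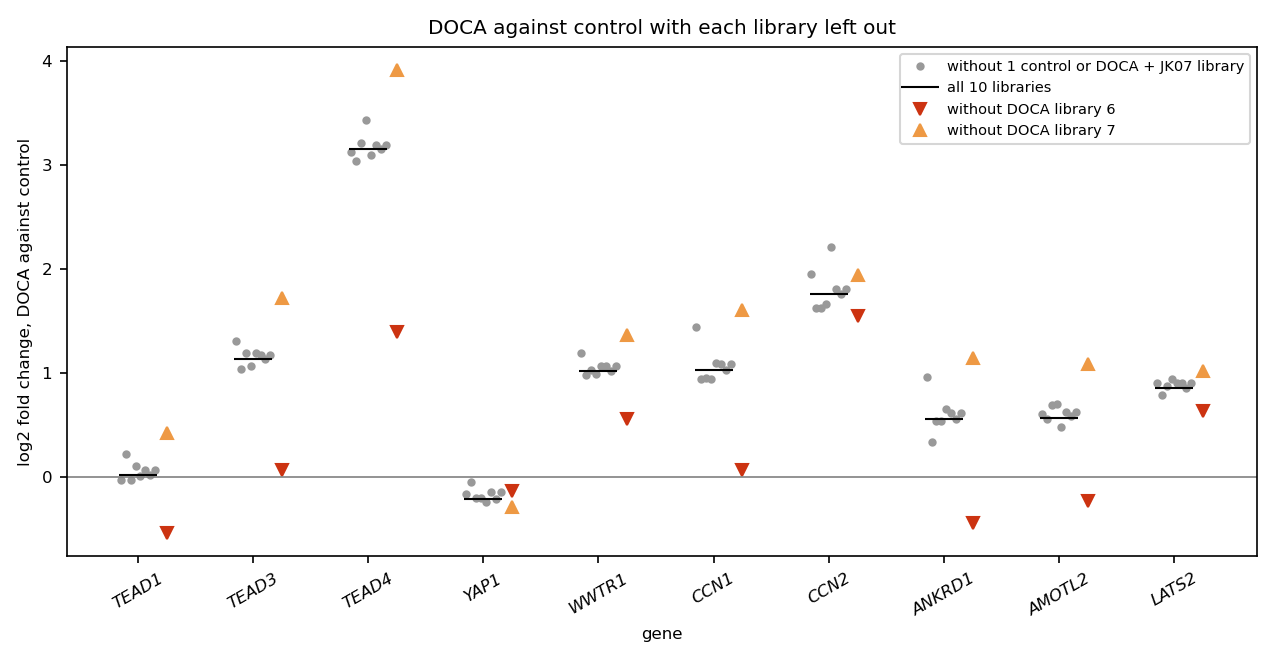
Log2 fold change of each of the 10 genes in DOCA against control (y axis) with all libraries (black lines), without 1 control or JK07 library (grey points), without DOCA library 6 (red) or without library 7 (orange). TEAD4 falls from 3.15 to 1.39 without library 6, and CCN2 stays at 1.55.

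Markers of other cells were measured beside these genes. Summed fibroblast markers were 883 to 2832 CPM in controls, 970 and 3046 CPM in DOCA libraries 6 and 7, and 845 to 2147 CPM with JK07. None of the 9 fibroblast markers was at 0 in any library. In any comparison 0 of them passed the threshold, where 25.5% of all genes passed in DOCA against control. Fibroblasts also express CCN1 and CCN2. Of the DOCA libraries, library 7 had the higher fibroblast markers and library 6 the higher CCN1 and CCN2 in CPM. In TPM, CCN2 was higher in library 7 (60.4) than in library 6 (44.0). Control library 5 (2832 CPM) and JK07 library 9 (2147 CPM) had the highest fibroblast markers of their groups, and also the highest CCN2. CCN1 was highest in control library 1 and JK07 library 9.

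Mesothelial markers summed to 7.20 to 28.0 CPM in controls, 11.7 and 121.5 CPM in libraries 6 and 7, and 3.3 to 31.5 CPM with JK07. Of these markers 1 of 5 was called higher in DOCA than in control, where 5.73% of all genes were. Mural cell markers summed to less in both DOCA libraries (77.7 and 79.0 CPM) than in controls (90.3 to 142 CPM) and JK07 libraries (108 to 135 CPM). Of 8 mural markers 2 (RGS5 and ABCC9), or 25%, were called lower in DOCA than in control, where 19.7% of all genes were. PDGFRB (0.63), NOTCH3 (0.33) and KCNJ8 (0.18) had positive log2 differences of DOCA from control, without a call. Endothelial markers overlapped, at 129 to 273 CPM in controls, 134 and 214 CPM in DOCA and 122 to 189 CPM with JK07, with EMCN at 0 in both DOCA libraries and TEK in library 6.

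Macrophage markers overlapped likewise, at 39.9 to 144 CPM in controls, 55.9 and 71.2 CPM in DOCA and 26.5 to 72.3 CPM with JK07, with LYVE1 at 0 in both DOCA libraries. Adipocyte markers summed to 18.2 to 31.6 CPM in controls, 20.8 and 13.6 CPM in DOCA and 23.1 to 45.3 CPM with JK07, with ADIPOQ and LEP at 0 in all libraries. Lymphocyte markers reached 1.93 CPM in controls and 2.45 CPM with JK07 and were all at 0 in DOCA. Markers of Schwann cells and neurons reached 6.57 CPM in controls, 8.30 CPM with JK07 and 2.56 CPM in DOCA. The part of other cells in the differences was not tested.

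Of 84 other genes of the pathway and its targets listed, 81 were identified and 79 tested, and 13 were higher and 15 lower in DOCA than in control by edgeR with Benjamini-Hochberg adjustment over all genes, with a median log2 difference of -0.19. That is 16.5% higher and 19% lower, where 5.73% of all genes were higher and 19.7% lower, so the share lower was near the background. In DOCA plus JK07 against DOCA, 10 were higher and 7 lower, or 12.7% and 8.86%, where 14.7% and 2.25% of all genes were. The split depended on the scale: on log2(TPM + 1) it was 4 higher and 24 lower in DOCA against control, and 29 higher and 1 lower in DOCA plus JK07 against DOCA. In DOCA plus JK07 against control 0 of 79 passed, with a median of 0.00. These genes are not members, but their lists were drawn up with earlier results of these data known. The shares called in these lists and the adjusted p-values of their genes, here and below, are therefore a description. They are not a test independent of that choice.

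Among kinases of the cascade, 8 of 15 were lower in DOCA and 0 higher, with a median of -1.10. That is 53.3% lower, where 19.7% of all genes were lower and 5.73% higher, with a median of -0.63. TAOK1, which phosphorylates the MST kinases, had 16.8, 13.7, 13.1, 14.0 and 15.7 CPM in controls, 5.48 and 6.86 CPM in DOCA, and 16.01, 14.7 and 11.8 CPM with JK07. DOCA lay below both other groups, with a log2 difference from control of -1.25 (SE 0.19, edgeR adjusted p = 0.00125). LATS1 differed by -1.23 (SE 0.20, edgeR adjusted p = 0.00145). MAP4K3 and MAP4K5, which can phosphorylate the LATS kinases, were lower as well, at -1.10 and -1.03 (edgeR adjusted p = 0.00212 and 0.00241). All 4 were higher with JK07 than in DOCA, by 1.20, 1.19, 0.95 and 0.84, and so was STK38L (1.48, named after its value was seen), a kinase related to the LATS kinases. TAOK1, MAP4K3 and MAP4K5 lost the JK07 call in a fit of the DOCA and JK07 libraries alone. With total counts and no TMM, TAOK1, LATS1 and MAP4K5 lost it, as did MAP4K5 with upper quartile scaling. With quality weights all 4 lost their calls in both comparisons. MAP4K4 (0.48) and TAOK2 (0.49) did not pass in DOCA against control, with edgeR adjusted p = 0.251 and 0.217.

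**Figure D5:**
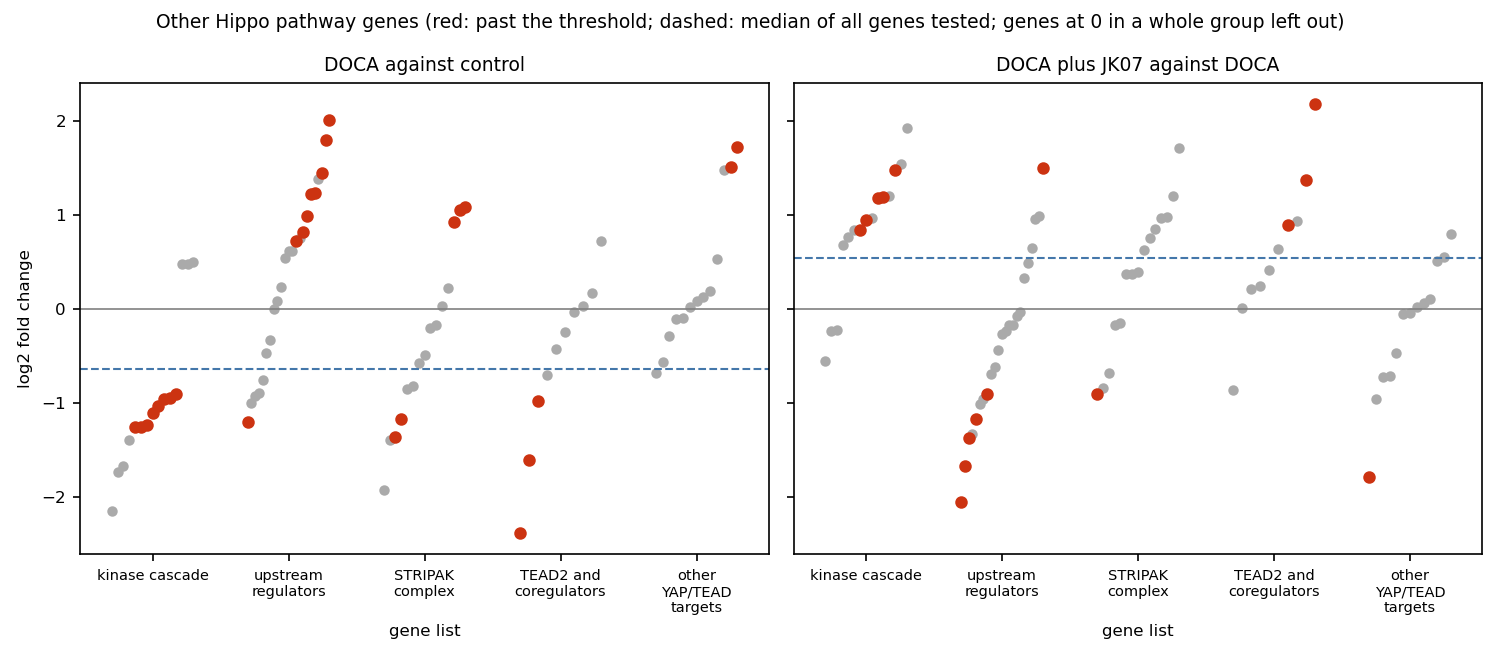
Log2 fold change (y axes) of the other Hippo pathway genes by list, in DOCA against control and in DOCA plus JK07 against DOCA. Points are genes, red past the threshold, and dashed lines are the median of all genes tested (-0.63 and 0.55). In DOCA 8 of 15 kinases are lower and 8 of 24 upstream genes higher, where 19.7% and 5.73% of all genes are. The lists were drawn up with earlier results of these data known, so these shares are a description.

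Upstream regulators, which are junction, polarity and scaffold proteins that feed the cascade, had 8 of 24 higher in DOCA and 1 lower, with a median of 0.58. That is 33.3% higher and 4.17% lower, where 5.73% and 19.7% of all genes were. The polarity scaffold DLG5 had 10.4 to 13.3 CPM in controls, 69.7 and 29.2 CPM in DOCA, and 17.3 to 20.7 CPM with JK07. Its log2 difference of DOCA from control was 2.02 (SE 0.27, edgeR adjusted p = 0.000491). SCRIB, another polarity scaffold, had 4.91 to 8.65 CPM in controls, 26.7 and 22.2 CPM in DOCA and 4.91 to 9.64 CPM with JK07, a difference of 1.81 (SE 0.28, edgeR adjusted p = 0.00136). The DOCA libraries lay above all others for both genes.

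WTIP, a LIM protein, was higher in DOCA by 1.24 (SE 0.26, edgeR adjusted p = 0.00773). The gene that was lower was CTNNA3, the alpha-T-catenin of the intercalated disc (-1.20, named after its value was seen). With JK07 against DOCA, SCRIB was lower (-1.67), as were DLG5 (-1.37), WTIP (-1.17) and NF2, an activator of the cascade (-0.90; the last 2 named after their values were seen). CTNNA3 was higher by 1.51, and lost its call without DOCA library 7 (1.14), JK07 library 8 (1.4) or JK07 library 10 (1.41). In that comparison DLG5 lost its call without library 6 (-0.61), and on log2(TPM + 1) so did DLG5 (-0.41) and SCRIB (-0.74). WTIP lost its call in DOCA against control on log2(TPM + 1), at 0.5. The atypical cadherin FAT1 (0.76) and the LIM protein PDLIM5 (-0.99) did not pass in DOCA against control, with edgeR adjusted p = 0.275 and 0.164.

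STRIPAK, a phosphatase complex that opposes the MST kinases, had 3 of 16 members higher and 3 lower in DOCA. That is 18.8% each, where 5.73% of all genes were higher and 19.7% lower. PPP2R1A, the STRIPAK scaffold subunit of protein phosphatase 2A, was at 14.96 to 16.95 CPM in controls, 38.3 and 29.9 CPM in DOCA, and 15.6 to 20.3 CPM with JK07. Its difference of DOCA from control was 1.09 (SE 0.15, edgeR adjusted p = 0.000623), and that of DOCA plus JK07 from DOCA was -0.90. On log2(TPM + 1) these were 0.48 and -0.14 and neither passed. STK25 (0.93) and STRN4 (1.06) were higher in DOCA and lost their calls without library 6, at 0.72 and 0.56, and on log2(TPM + 1), at 0.32 and 0.41. PPP2CB, a catalytic subunit, was lower (-1.17) and lost its call without control library 1 (-0.99), control library 4 (-1.12) or DOCA library 7 (-0.92), and STRN was lower (-1.35, named after its value was seen). PDCD10 was listed at 0 in both DOCA libraries, against 2.41 ± 0.780 CPM in controls (SD, n = 5) and 1.59 ± 0.630 with JK07 (SD, n = 3), and no fold change was read from it. SLMAP (-0.57) and STRIP2 (-0.81) did not pass in DOCA against control.

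Among TEAD2 and the coregulators of TEAD factors, 3 of 10 were lower in DOCA and 0 higher, with a median of -0.33. That is 30% lower, where 19.7% of all genes were lower and 5.73% higher. NCOA1, a steroid receptor coactivator that also binds TEAD factors, had 13.1, 14.0, 14.3, 11.9 and 11.6 CPM in controls, 2.00 and 3.01 CPM in DOCA, and 10.99, 11.4 and 11.6 CPM with JK07. DOCA lay below every other library, with a difference from control of -2.38 (SE 0.21, edgeR adjusted p = 4.72e-05), and JK07 lay above DOCA by 2.18 (edgeR adjusted p = 9.41e-05). NCOA3 of the same family was lower (-1.60), as was the Mediator subunit MED1 (-0.98), and both were higher with JK07 than in DOCA (1.37 and 0.90). With quality weights NCOA1 (2.25), NCOA3 (1.43) and MED1 (0.85) lost their JK07 calls, and MED1 (-0.95) its DOCA call. NCOA3 and MED1 also lost the JK07 call in a fit of the DOCA and JK07 libraries alone (1.31 and 0.84). With total counts and no TMM they lost it too (1.13 and 0.73). The acetyltransferases CREBBP (-0.03) and EP300 (-0.69) did not pass in DOCA against control, with edgeR adjusted p = 0.944 and 0.0803.

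Of 14 other textbook targets of YAP and TEAD tested, 2 were higher in DOCA and 0 lower, with a median of 0.06. That is 14.3% higher, where 5.73% of all genes were higher and 19.7% lower. FJX1, a Golgi kinase-like protein, had 1.79 to 4.34 CPM in controls, 8.29 and 7.76 CPM in DOCA, and 1.90 to 3.19 CPM with JK07. It was higher in DOCA by 1.52 (SE 0.34, edgeR adjusted p = 0.0112) and lower with JK07 than in DOCA (-1.78, edgeR adjusted p = 0.0118), a call lost on log2(TPM + 1) (-0.75). GADD45A, a stress-induced gene, was at 1.35 to 3.98 CPM in controls, 9.96 and 9.73 CPM in DOCA, and 8.09, 8.01 and 1.85 CPM with JK07. It was higher in DOCA by 1.72 (edgeR adjusted p = 0.0412), a call that was lost without any 1 of the 5 controls, without either DOCA library, or without JK07 library 9 (1.54 to 1.85), and on log2(TPM + 1) (1.07). CRIM1 (0.54) and CCDC80 (-0.10) did not pass.

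The genes whose log2 CPM followed a member most closely over the 10 libraries were looked up among 7519 named genes above 0 in every library. The points share library, depth and scaling, and the values are a description. For CCN2 they were PDLIM3, an actin-associated LIM protein (Pearson r = 0.979, and 0.967 without the DOCA libraries), RIPK1 (0.96) and SLC12A4 (0.954). For ANKRD1 they were CSRP3, the muscle LIM protein (0.922), TTYH2 (0.919) and SETD3 (0.916). For TEAD1 they were RNF144B (0.901), BZW2 (0.887) and DCAF6 (0.882), and for YAP1 they were RSBN1 (0.923), LSM11 (0.912) and STX4 (0.879). On log2(TPM + 1) PDLIM3 (0.969) and SLC12A4 remained among the 3 for CCN2 and TTYH2 among those for ANKRD1, while none of the 3 for TEAD1 or YAP1 did.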

How the data were processed

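Per the file headers, each of the 10 libraries had a gene table with coverage signal, FPKM and TPM for 35670 identifiers. The authors also deposited whole-number estimated counts in a table without a gene column. Its rows were matched to the sorted identifiers: 99.998% of values were 0 in both tables or in neither, against 62.6% after a move by 1 line. The genome build was Sscrofa11.1 and the tools named are StringTie, SAMtools and edgeR, per the submitters' processing notes. Aligner and versions: not given in the sources used here. The deposited FPKM values were not used. Coverage served only for matching rows, and genes listed at 0 are not read as absent.

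Counts were tested with edgeR 4.0.16 in R 4.3.3 (quasi-likelihood F test, TMM, filterByExpr, not robust, group as the only term, all 10 libraries). An adjusted p under 0.05 over 17251 genes was a call. The biological coefficient of variation was 0.873, and the residual degrees of freedom were 7, with the DOCA group adding little. SE is approximate, the log2 fold change without its sign over the root of its F value. CPM errors are SD over libraries. Alternatives used DESeq2 1.42.0 and limma 3.58.1, other scalings and filters, deposited TPM on log2(TPM + 1) and log2(TPM + 0.1), where the pseudocount understates low genes, and left-out libraries.

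The members and lists were chosen with earlier results of these data known. Genes named from a list were, for each comparison with calls, up to 4 called genes with the smallest p above 0 in every library compared, called genes at 0 in a whole group, and the 2 uncalled genes with the highest CPM. 1 gene that this rule names is not reported here.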

Additional observations from a re-analysis of the deposited data

Results flagged for a closer look

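Among 38 sets of 5 control values, 2 had a library whose gap to its nearest neighbour, as a fraction of the whole range, exceeded Dixon's limit of 0.71. Chance alone flags about 5% of such sets. Control library 2 was the lowest for CRIM1, at 12.3 CPM against 20.1 CPM in the nearest library (gap 0.735), and for EP300, at 30.2 against 36.3 CPM (gap 0.735). None of the 10 members was among them.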

How the results depend on the processing

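DOCA against control called 4391 genes, and 161 with voom quality weights (3307 to 5286 when leaving out 1 library). Members called, 3 there, were 5 with upper quartile scaling or DESeq2, 1 on log2(TPM + 1), log2(TPM + 0.1) or rescaled TPM (scaling added after seeing the data), and 0 with quality weights (0 to 5 leaving out 1 library: 0 without library 6, 5 without library 7). The 28 other Hippo genes called became 4 with quality weights (20 to 34 leaving out 1 library). DOCA plus JK07 against DOCA called 2930 genes, and 5049 with DESeq2, 5 with quality weights, 5626 on log2(TPM + 1), 6084 on log2(TPM + 0.1), and 2277 to 4455 leaving out 1 library (the highest without library 7). Its 1 member became 3 with DESeq2, DESeq2 size factors or upper quartile scaling, 2 with total counts and no TMM (added after seeing the data), and 0 with quality weights or a fit of those 5 libraries alone (0 to 2 leaving out 1 library: 0 without library 6 or 8, 2 without library 2 or 7). Its 17 other Hippo genes became 0 with quality weights, 30 on log2(TPM + 1), 29 on log2(TPM + 0.1), 6 with those 5 libraries, and 15 to 29 leaving out 1 library (29 without library 7). DOCA plus JK07 against control called 0 genes, 116 with DESeq2 and 8 with quality weights. The cause was not tested.

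Scaling moved the split of calls. Of all genes called in DOCA against control, 22.5% were higher, against 34.7% with upper quartile scaling, 4.97% on log2(TPM + 1), 3.74% on log2(TPM + 0.1) and 7.88% on rescaled TPM, with medians of all genes of -0.63, -0.39, -0.39, -0.98 and -0.84. In DOCA plus JK07 against DOCA 86.8% were higher (388 genes lower), against 73.6% with upper quartile scaling (752 lower), 98.4% on log2(TPM + 1) (90 lower), 99.1% on log2(TPM + 0.1) (53 lower) and 95.6% on rescaled TPM (155 lower). The 13 higher and 15 lower other Hippo genes became 14 and 9 with upper quartile scaling, 4 and 24 on log2(TPM + 1), 2 and 26 on log2(TPM + 0.1), and 4 and 20 on rescaled TPM. The 10 higher and 7 lower with JK07 became 9 and 13 with upper quartile scaling, 5 and 8 with total counts, 29 and 1 on log2(TPM + 1), and 28 and 1 on log2(TPM + 0.1). PPP2R1A (0.48), STK25 (0.32), STRN4 (0.41), WTIP (0.5) and GADD45A (1.07) lost their calls in DOCA against control on log2(TPM + 1), as did PPP2R1A (-0.14), DLG5 (-0.41), SCRIB (-0.74) and FJX1 (-0.75) in DOCA plus JK07 against DOCA. FJX1 lost its call in DOCA against control on log2(TPM + 0.1) (1.00), and MAP4K5 (0.98), MED1 (1.01) and PPP2R1A (-0.69) theirs in DOCA plus JK07 against DOCA on rescaled TPM.

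Reversals were in genes without a call in the fit of all libraries. FAT1 in DOCA plus JK07 against DOCA passed the threshold in 2 of the 10 fits that left out 1 library. Without library 6 it passed in the opposite direction, at 1.3 (SE 0.34), and in the other fit it stayed negative. In DOCA against control on log2(TPM + 1) and log2(TPM + 0.1), MAP4K4 was at -0.01 and -0.01, TAOK2 at 0 and -0.01, and FAT1 at -0.08 and -0.16. CREBBP was at 0.05 with DESeq2 size factors, 0.23 with upper quartile scaling, 0.03 with ribosomal and mitochondrial features left out, 0.08 with total counts and 0.04 with DESeq2. CCDC80 was at 0.17 with upper quartile scaling and 0.08 with total counts. In DOCA plus JK07 against DOCA on log2(TPM + 1) and log2(TPM + 0.1), MAP4K4 was at 0.16 and 0.18, TAOK2 at 0.4 and 0.49, FAT1 at 0.6 and 0.84, and CRIM1 at 0.19 and 0.21. FAT1 was also at 0.33 on rescaled TPM and 0.13 with quality weights, and CREBBP at -0.01 with upper quartile scaling. Leaving out 1 library in DOCA against control gave -0.8 to 1.48 for FAT1, -0.45 to 0.29 for CREBBP and -1.11 to 0.48 for CCDC80, and in DOCA plus JK07 against DOCA -0.99 to 1.3 for FAT1, -0.06 to 0.67 for CREBBP and -0.03 to 1.56 for CCDC80.

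No paired analysis was possible because the groups share no replicate number. The share of promoters with a TEAD motif was not run, since no sequence was used here. At 3.3 and 6.87 M counts outside ribosomal and mitochondrial RNA and 2 libraries, the DOCA group limits every comparison it enters, and a p that missed the threshold does not show that levels did not differ.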
